A study of Mus musculus with 16 samples.

Results

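The nuclear genes for the TIM and TOM proteins were followed in brown fat that lacks OPA1, the GTPase of the inner mitochondrial membrane that drives inner membrane fusion and keeps cristae in shape. Their members were all protein-coding mouse genes of the GENCODE M21 annotation whose symbol begins with Timm or Tomm followed by a digit, which gave 25 genes (15 Timm and 10 Tomm) of 51060 genes measured. RNA was sequenced from the interscapular brown adipose tissue (iBAT) of 16 mice aged 7 weeks, with 4 females and 4 males of each genotype. The OPA1 BKO mice carried floxed Opa1 alleles (Opa1 fl/fl) and a Ucp1-Cre transgene, so that recombination is driven by the Ucp1 promoter in brown adipocytes, and the WT mice were littermates with the same homozygous floxed alleles and no Cre. All mice were on the C57Bl/6J background, ate chow ad libitum and were kept at room temperature. The RNA came from whole tissue, so other cells of the depot kept an intact Opa1 gene, and fewer cells of a type and less RNA per cell cannot be told apart. No litter, cage or batch was given in the labels, and p-values measure the spread between these mice.

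Almost all mitochondrial proteins are made in the cytosol and must be imported. The TOM complex of the outer membrane recognizes them through receptor subunits and passes them through the TOM40 channel, which small TOM subunits stabilize. Small TIM chaperones then escort hydrophobic proteins across the intermembrane space to the TIM22 carrier translocase, whereas proteins with a presequence go to the TIM23 translocase and are pulled into the matrix by an ATP-driven motor. Brown adipocytes are packed with mitochondria and depend on this traffic for the proteins of thermogenesis.

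Libraries held from 13607283 to 23114534 estimated counts. Opa1 lay between 151.9 and 209.6 CPM (counts per library total after TMM scaling) in WT libraries and between 17.9 and 36.9 CPM in OPA1 BKO libraries, so every library matched its label. RNA of the mitochondrial genome made up between 23.3% and 30.5% of WT counts but between 4.44% and 9.02% of OPA1 BKO counts. CPM values were therefore scaled by TMM throughout, which centers the libraries on the typical gene, and a log2 fold change on this scale is a change relative to the typical gene. Summed skeletal muscle markers (10 genes) ranged from 3.65 to 17082 CPM without separating the genotypes, and 9 mice lay above 1000 CPM. Brown adipocyte markers (11 genes) summed to 14991 to 22410 CPM in WT and to 8937 to 14629 CPM in OPA1 BKO mice. Cidea, Cox7a1, Adipoq and Fabp4 were the 4 that fell, and Elovl3 and Pparg the 2 that rose. Ucp1 (log2 fold change −0.46, edgeR adjusted p = 0.0738), Ppargc1a, Dio2, Prdm16 and Plin1 were not called. Fabp4 had the highest mean CPM of the list (WT 8470, OPA1 BKO 4831), so the sum leans on that gene and does not stand for the whole list. Macrophage markers rose for 8 of 10 genes (summed level 83.2 to 119.1 CPM in WT and 115.7 to 512.5 CPM in OPA1 BKO mice), fibroblast markers rose for 4 of 6 (462.5 to 742.3 and 523.1 to 1049 CPM) and endothelial markers fell for 4 of 6 (859.0 to 1236 and 694.5 to 957.4 CPM). Lymphocyte markers split (1 rose and 2 fell of 8), and 0 of 3 white adipocyte markers were called. None of these markers was at 0 in all mice, and their part in the results below was not tested.

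Relative to the typical gene, most TIM and TOM transcripts were lower in OPA1 BKO than in WT iBAT, and the decreases were small. Of the 23 members with enough counts to test, 17 fell, 0 rose and 6 were not called by edgeR's quasi-likelihood test (Benjamini-Hochberg adjusted p under 0.05 over 15632 genes). At an unadjusted p under 0.05, 18 were lower and 0 higher, and DESeq2 also called 17 lower and 0 higher. Over all genes tested, 20.2% were called lower and 20.8% higher. The median log2 fold change was −0.30 over the members and 0.01 over all genes. In 8 members every OPA1 BKO mouse lay below every WT mouse, and in 0 members every OPA1 BKO mouse lay above; the corresponding shares of all genes were 4.89% and 5.07%. The remaining members, Timm8a2 (a paralog of the small TIM gene Timm8a1) and Tomm20l (a paralog of the receptor gene Tomm20), had at most 1 and 2 estimated counts in any mouse and were not tested.

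**Figure D1:**
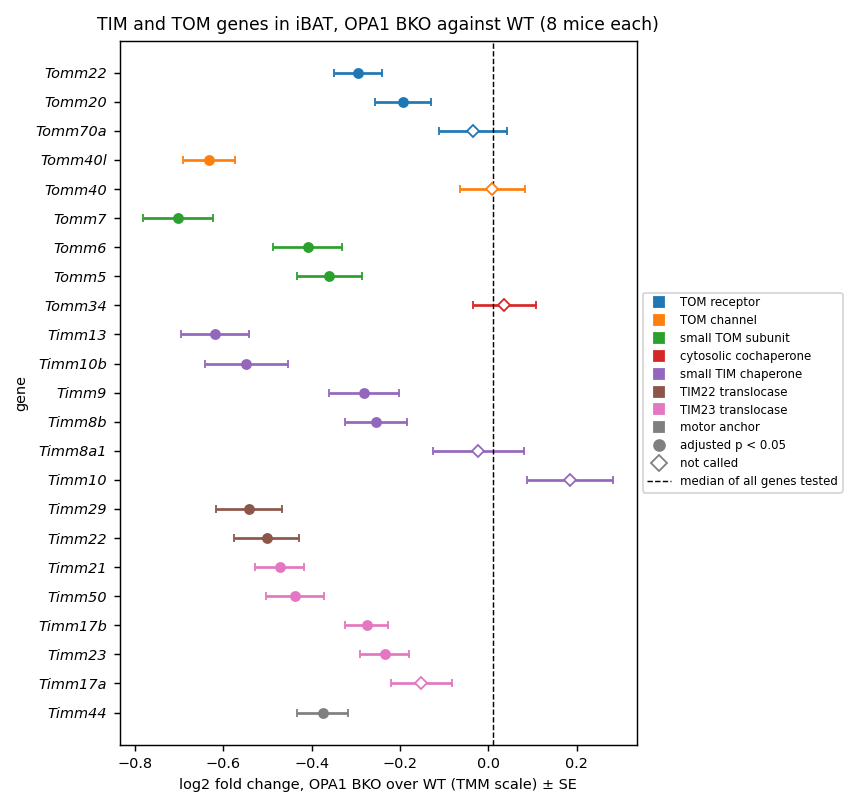
Log2 fold change of OPA1 BKO over WT with its standard error (x axis) for the 23 tested TIM and TOM genes (y axis), colored by role; filled circles passed the edgeR test and open diamonds did not, and the dashed line is the median of all genes. The 17 filled circles lie left of the line, from −0.70 for Tomm7 to −0.19 for Tomm20, and Timm10 is farthest to the right at 0.18.

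The direction of these changes depended on the scale. In CPM without TMM, 13 members were higher and 0 lower, with an all-gene median of 0.57. In TPM, transcripts scaled to length and library total (limma on log2(TPM + 0.5)), 23 of 23 were higher, with an all-gene median of 0.87. With the mitochondrial genome left out of the TPM (nuclear TPM), 12 were higher and 2 lower (Timm13 and Tomm7), with an all-gene median of 0.44. The members' position against other genes was steadier than their direction, since their median stayed 0.20 to 0.31 below the all-gene median in each of these fits, and 18 to 21 of the 23 lay below it. Summed nuclear TPM of the Timm genes was 1789 ± 105 (SD, n = 8) in WT and 1999 ± 110 in OPA1 BKO mice, and that of the Tomm genes was 995.5 ± 77.0 and 1083 ± 60.3. In every statement below, lower and higher mean relative to the typical gene.

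**Figure D2:**
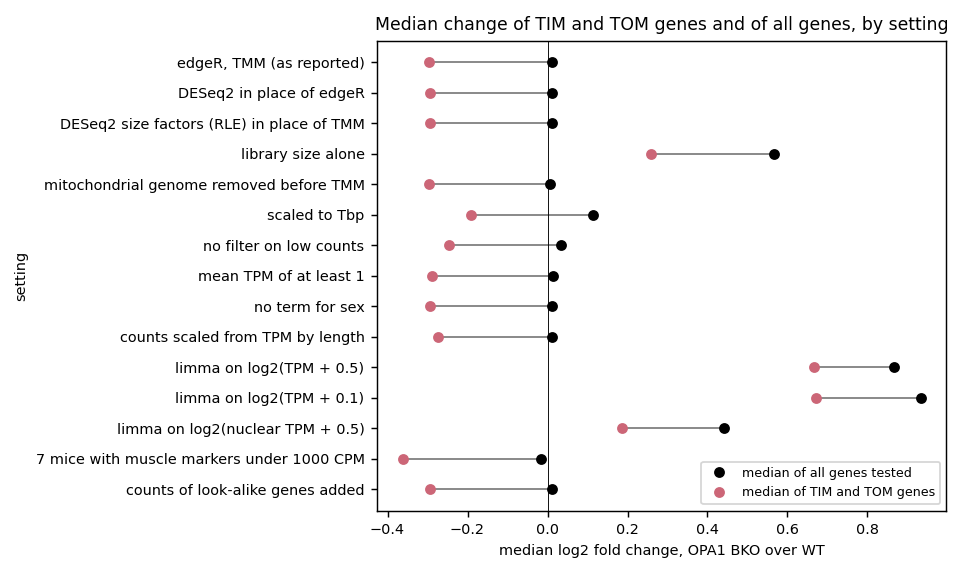
Median log2 fold change of OPA1 BKO over WT (x axis) for all genes tested (black) and for the TIM and TOM genes (red), by scaling, test or choice of mice (y axis). Both medians move together, and the red point lies left of the black point in every row, also where both are above 0.

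Among the TOM receptors, Tomm22 and Tomm20 fell. Tomm22 is the central receptor that joins the others to the channel. Its lowest, median and highest values were 89.1, 100.5 and 113.2 CPM in the WT mice and 71.2, 81.1 and 90.1 CPM in the OPA1 BKO mice. The ranges overlapped by a small margin, and the log2 fold change was −0.30 ± 0.05 (SE, edgeR adjusted p = 0.000416). Tomm20, the presequence receptor, had 69.3, 81.2 and 91.3 CPM in WT and 62.9, 70.7 and 81.6 CPM in OPA1 BKO mice (log2 fold change −0.19 ± 0.06, adjusted p = 0.0230). Most of its values overlapped, and it fell in females (−0.30) but was not called in males (−0.08). Its call was lost when counts were scaled by length (−0.20, adjusted p = 0.111), without the filter on low counts (−0.14, adjusted p = 0.208) and when scaled to Tbp (−0.09, adjusted p = 0.570). Tomm70a, the receptor for carrier proteins with internal signals, was not called, with 78.8 to 110.5 CPM in WT, 81.5 to 105.3 CPM in OPA1 BKO mice and a log2 fold change of −0.03 ± 0.08. Tomm34, a cytosolic cochaperone that binds Hsp70 and Hsp90, was not called either (0.04 ± 0.07).

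The channel genes diverged. Tomm40, which encodes the main pore of the outer membrane, had 73.2, 83.7 and 103.4 CPM in WT and 73.8, 86.2 and 99.6 CPM in OPA1 BKO mice. These values overlapped throughout, and the log2 fold change was 0.01 ± 0.07 (edgeR adjusted p = 0.931). Its paralog Tomm40l had 86.0, 94.0 and 111.9 CPM in WT and 56.0, 60.2 and 66.9 CPM in OPA1 BKO mice. No OPA1 BKO mouse reached the WT range, and the log2 fold change was −0.63 ± 0.06 (adjusted p = 7.05e-07).

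The share of Tomm40l in the summed TPM of Tomm40 and Tomm40l does not depend on how libraries are scaled. It was 46.7%, 45.9%, 45.1% and 44.7% in WT females and 44.5%, 48.2%, 36.9% and 43.3% in WT males, against 37.7%, 35.1%, 34.4% and 37.4% in OPA1 BKO females and 35.5%, 34.4%, 33.7% and 30.7% in OPA1 BKO males. A WT male at 36.9% was the only WT mouse within the OPA1 BKO range. The mean share was 44.4% ± 3.40 (SD, n = 8) in WT and 34.9% ± 2.18 in OPA1 BKO mice (difference −9.54 percentage points, exact two-sided permutation test p = 0.000466, adjusted over 4 paralog pairs p = 0.00186). The share of estimated counts gave 52.5% ± 2.42 and 41.4% ± 2.15, with the smallest p that this exact test can give (0.000155). In females alone and in males alone the differences were −9.46 and −9.61 percentage points (exact permutation p = 0.0286 in each, the smallest that 4 against 4 mice allow). Tomm40l overlaps Nr1i3, with which it shares 59.6% of its 31-base words, and Nr1i3 held a mean of 9.12 estimated counts against 1391 for Tomm40l. The share counts all transcripts of both genes, also those not annotated as protein-coding. Of the Tomm40l TPM, Tomm40l-206 (nonsense-mediated decay) took 25.7% in WT and 24.2% in OPA1 BKO mice. Tomm40l-208 (processed transcript) took 11.1% and 13.5%, and Tomm40l-204 (retained intron) 8.90% and 8.55%. Each such transcript of Tomm40 took a mean of 3.59% or less in WT mice. The share of coding transcripts alone was not compared.

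**Figure D3:**
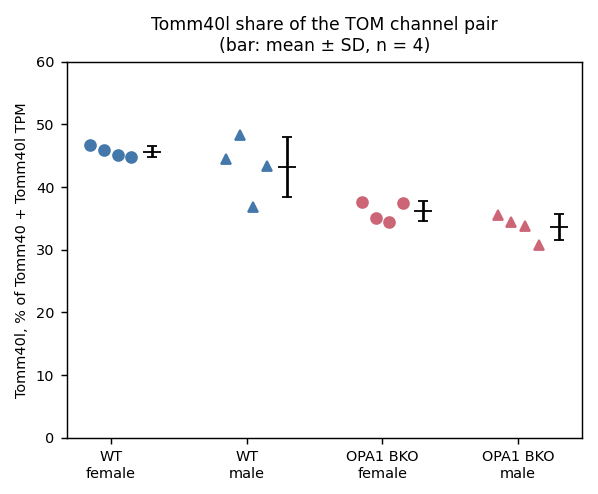
Share of Tomm40l in the summed TPM of Tomm40 and Tomm40l (y axis, percent) for each mouse by genotype and sex (x axis), with mean ± SD of 4 mice beside the points. The OPA1 BKO mice lie between 30.7% and 37.7%, and 7 of 8 WT mice lie between 43.3% and 48.2%.

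Shares within the other paralog pairs were not called, and the Timm8a1 values carry the uncertainty of its near copy Gm9797. Timm17b took 16.6% ± 2.52 of the Timm17a and Timm17b TPM in WT and 15.3% ± 0.886 in OPA1 BKO mice (n = 8 each, exact permutation adjusted p = 0.200). Transcripts with a retained intron weigh on this share: Timm17a-204 held 64.2% of the Timm17a TPM and Timm17b-203 41.1% of the Timm17b TPM in WT mice. Coding transcripts alone were not compared. Timm8a1 took 12.01% ± 1.65 of the Timm8a1 and Timm8b TPM in WT and 13.8% ± 1.80 in OPA1 BKO mice (exact permutation p = 0.0536, adjusted p = 0.107); with estimated counts the p before adjustment was 0.0486. Tomm20l took 0% of its pair with Tomm20 in every WT mouse and at most 0.494% in an OPA1 BKO mouse.

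All 3 small TOM subunits fell. Tomm7, which modulates the assembly of the TOM complex and the stabilization of PINK1 at the outer membrane, had 90.7, 100.2 and 126.5 CPM in WT and 56.2, 61.8 and 73.9 CPM in OPA1 BKO mice. It had the lowest log2 fold change of the members, at −0.70 ± 0.08 (edgeR adjusted p = 4.65e-06), a 1.63-fold lower mean level. Tomm6, a stabilizer of the channel, had 80.8, 87.9 and 119.2 CPM in WT and 59.6, 67.5 and 91.5 CPM in OPA1 BKO mice (−0.41 ± 0.08, adjusted p = 0.000543), so the groups overlapped. It shares 77.3% of its words with other annotated genes, among them a read-through transcript, but the main sharer, Gm21981, held a mean of 42.6 estimated counts against 1473 for Tomm6. Tomm5 ranged from 64.3 to 94.4 CPM in WT and from 52.4 to 71.4 CPM in OPA1 BKO mice (−0.36 ± 0.07, adjusted p = 0.00105).

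The small TIM chaperones split. Timm13, the partner of TIMM8 in a hexamer of the intermembrane space, had 89.2, 112.5 and 136.1 CPM in WT and 62.5, 72.4 and 88.0 CPM in OPA1 BKO mice. Its groups did not overlap, and it fell by 0.62 ± 0.08 on the log2 scale (edgeR adjusted p = 1.14e-05). Of its partners, Timm8b fell (−0.25 ± 0.07, adjusted p = 0.00871) and Timm8a1, the mouse gene for the protein lost in human deafness-dystonia syndrome, was not called (−0.02 ± 0.10). Timm8a1 shares 41.8% of its words with the pseudogene Gm9797, which held a mean of 127.6 estimated counts against 531.5, and adding those counts gave a log2 fold change of 0.05. In the other hexamer, TIMM9 with TIMM10, Timm9 fell (−0.28 ± 0.08, adjusted p = 0.00989), whereas Timm10 had 24.9, 31.6 and 37.8 CPM in WT and 23.9, 37.1 and 46.9 CPM in OPA1 BKO mice. The Timm10 groups overlapped, and at 0.18 ± 0.10 (adjusted p = 0.144) it was the highest of the members but was not called. Timm10b, whose product docks these hexamers on the TIM22 translocase, fell by 0.55 ± 0.10 (adjusted p = 0.000272), with 29.4 to 49.3 CPM in WT and 19.7 to 29.5 CPM in OPA1 BKO mice.

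Both member genes of the TIM22 translocase fell without overlap. Agk, a partner gene of this carrier translocase outside the members, was not called and its groups overlapped (log2 fold change −0.11 ± 0.08, edgeR adjusted p = 0.272). Timm22, the channel for carrier proteins, had 28.0, 32.4 and 41.9 CPM in WT and 19.7, 24.0 and 26.7 CPM in OPA1 BKO mice (log2 fold change −0.50 ± 0.07, edgeR adjusted p = 5.91e-05). Timm29, a metazoan subunit of this translocase, had 45.2, 61.9 and 66.7 CPM in WT and 36.05, 40.9 and 45.0 CPM in OPA1 BKO mice (−0.54 ± 0.08, adjusted p = 3.86e-05). For Timm29 the gap was narrow, since the lowest WT mouse and the highest OPA1 BKO mouse differed by less than 1 CPM.

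In the TIM23 translocase 4 of 5 genes fell. Timm50, the presequence receptor of the inner membrane, had 97.9, 113.7 and 137.0 CPM in WT and 78.4, 85.6 and 93.3 CPM in OPA1 BKO mice (log2 fold change −0.44 ± 0.07, edgeR adjusted p = 7.50e-05). Timm21, which links the translocase to the TOM complex and the respiratory chain, had 36.7, 43.0 and 49.7 CPM in WT and 27.0, 32.1 and 33.9 CPM in OPA1 BKO mice (−0.47 ± 0.05, adjusted p = 6.37e-06). Neither gene overlapped between genotypes. The channel gene Timm23 had 207.6, 229.9 and 253.4 CPM in WT and 177.5, 193.7 and 214.7 CPM in OPA1 BKO mice (−0.23 ± 0.06, adjusted p = 0.00323); it shares 63.5% of its words with near copies, of which Gm10273 held a mean of 9.51 estimated counts against 3897. Of its alternative partner subunits, Timm17b fell (−0.27 ± 0.05, adjusted p = 0.000317) and Timm17a was not called (−0.15 ± 0.07, adjusted p = 0.0899). Timm44, which anchors the import motor to the translocase, had 152.2, 164.3 and 176.6 CPM in WT and 110.7, 131.7 and 138.1 CPM in OPA1 BKO mice (−0.38 ± 0.06, adjusted p = 9.06e-05), again without overlap.

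**Figure D4:**
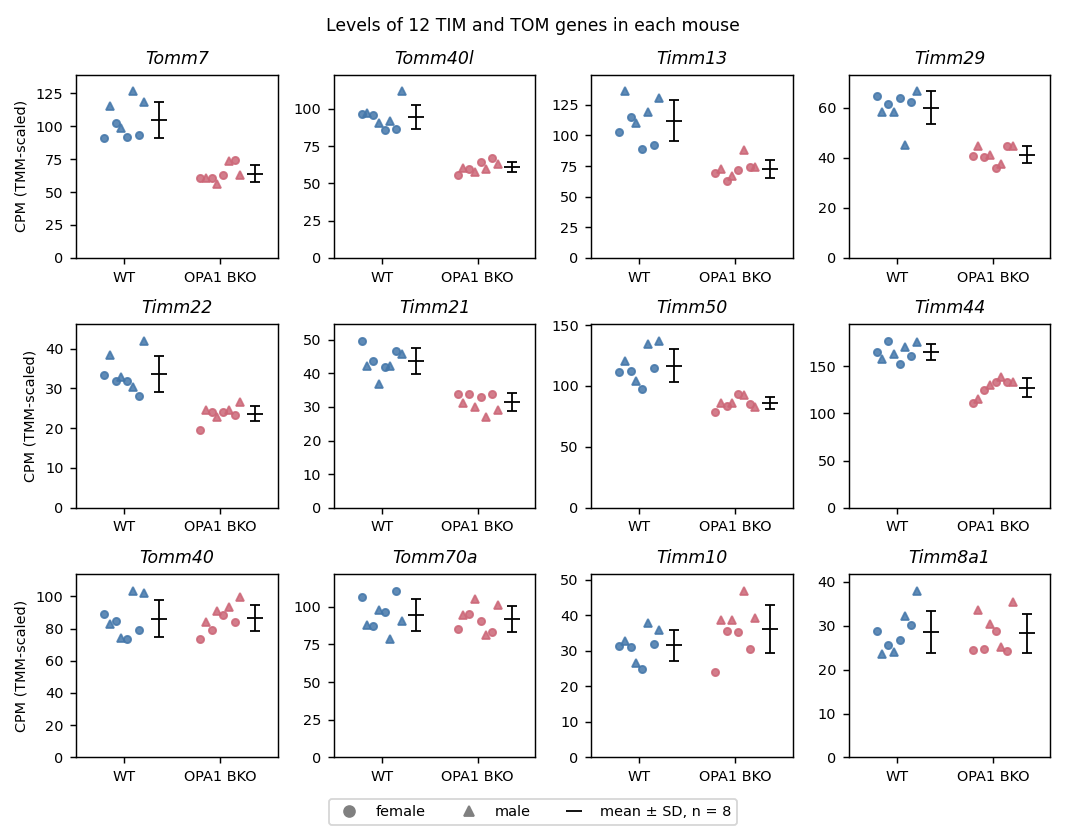
TMM-scaled CPM (y axis, from 0) of 12 TIM and TOM genes in every WT and OPA1 BKO mouse (circles female, triangles male), with mean ± SD of 8 mice beside the points. In the upper 8 panels, Tomm7 to Timm44, no OPA1 BKO mouse reaches the WT range, and in the lower 4 panels, Tomm40, Tomm70a, Timm10 and Timm8a1, the ranges overlap.

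Levels between genes were compared per length, in nuclear TPM. In WT mice Timm23 was the highest member at 312.2 ± 25.2 (SD, n = 8), ahead of Timm13 at 268.2 ± 26.2. Timm17a (226.1 ± 25.7), Timm8b (223.9 ± 14.5), Tomm6 (217.4 ± 21.8) and Tomm5 (213.6 ± 22.2) followed within their spread of one another. Timm44, Tomm7, Timm50 and Tomm22 formed the next level, from 148.5 to 141.0, also within their spread. The TIM22 genes were low, with Timm22 at 34.2 ± 5.31 and Timm29 at 27.1 ± 4.66, as was the receptor gene Tomm70a at 22.1 ± 4.21, and Tomm34 was the lowest tested member at 14.7 ± 1.49. In OPA1 BKO mice Timm23 was again the highest (366.0 ± 18.5). The means of Timm17a (294.3 ± 29.2) and Timm8b (262.5 ± 25.4) stood above that of Timm13 (236.7 ± 21.2). Tomm5 (233.0 ± 25.8) and Tomm6 (228.5 ± 23.4) lay within their spread of Timm13. The TPM of Timm17a is set largely by a short transcript with a retained intron, Timm17a-204, which made up 64.2% of its TPM in WT mice. Its place in this order thus depends on that annotation. The place of Timm13 rests on its transcripts as well. In WT mice Timm13-204 made up 54.7% of its TPM with a mean of 639.8 estimated counts, and Timm13-201 28.0% with 915.9. In CPM, which is not per length, the WT means were 111.9 for Timm13 and 116.8 for Timm17a.

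Calls went the same way in females and males. In females 14 members fell and 0 rose (at an unadjusted p under 0.05, 16 and 0), against 9.03% of all genes lower and 8.96% higher. In males 16 fell and 0 rose (unadjusted, 16 and 1, the latter Timm10), against 16.9% and 17.9% of all genes. DESeq2 called 15 members in females and 16 in males. Timm8b, Timm9 and Timm23 were called in males and not in females, and Tomm20 in females and not in males. The test of the difference itself, the interaction of genotype and sex, called 0 members with edgeR and 0 with DESeq2, against 0.115% of all genes with edgeR. At an unadjusted p under 0.05 it gave 1 of 23 members, against 13.1% of all genes. That member was Tomm7, whose log2 fold change was −0.55 in females and −0.86 in males. Tomm6 was the only member that differed between the sexes across genotypes, and it was higher in males (log2 difference 0.29 ± 0.08, edgeR adjusted p = 0.0445); 4.24% of all genes differed between the sexes, so 1 of 23 members is near that share.

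Transcript usage within the members was not called. Of 18 members with more than 1 transcript to compare, 0 passed edgeR's diffSpliceDGE test (Simes adjusted p under 0.05), against 3.65% of 9058 genes. Timm23 had the lowest p (0.0198, adjusted p = 0.259) and was the only member under an unadjusted 0.05; no other tool was run. For Tomm40l the main transcript made up 45.1% of its TPM in WT and 43.4% in OPA1 BKO mice.

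Nuclear genes of mitochondria are often controlled by NRF1, GABPA (an ETS factor), YY1 and estrogen-related receptors, and the integrated stress response acts through ATF4 and CHOP. Short cores of their motifs were searched on both strands in RefSeq promoters (GRCm38.p6, 250 bases before to 50 after the start), which were at hand for 22 of the 25 members. The ETS core CCGGAAGT lay in 6 members (Timm10, Timm10b, Timm23, Timm29, Timm8a2 and Tomm70a) and in 3.89% of 32851 promoters. The NRF1 core GCGCATGCG lay in Timm13 (1.75% of promoters), the YY1 core AAGATGGCG in Timm50 (1.40%) and the estrogen-related receptor element TCAAGGTCA in Timm8b (0.423%). The composite element TGATGNAA of ATF4 and CHOP lay in 0 members and in 3.97% of promoters. A match is a string of letters and no evidence of binding. Windows are shown for a matched member that fell without overlap (Timm13, Timm29 and Timm50), for members that fell less (Timm23 and Timm8b) and for one that was not called (Tomm70a). They run 5′ to 3′ along the gene's strand, with the matched letters in capitals. In Timm13, Timm29 and Timm23 the capitals are the reverse complement of the named core, which lies on the other strand.
Timm13: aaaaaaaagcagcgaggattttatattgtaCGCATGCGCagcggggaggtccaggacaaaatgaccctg
Timm29: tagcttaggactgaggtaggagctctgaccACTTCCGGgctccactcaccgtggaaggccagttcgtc
Timm50: gcgtcagcgcAAGATGGCGgcctcggcgg
Timm23: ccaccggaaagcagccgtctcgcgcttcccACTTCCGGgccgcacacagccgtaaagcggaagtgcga
Timm8b: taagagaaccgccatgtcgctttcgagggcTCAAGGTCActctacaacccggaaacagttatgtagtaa
Tomm70a: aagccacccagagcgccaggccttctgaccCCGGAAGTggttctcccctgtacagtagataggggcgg
The windows lie at chr10:80901124-80901192 (minus strand) for Timm13, chr9:21592479-21592546 (plus) for Timm29, chr7:28312017-28312045 (minus) for Timm50, chr14:32201902-32201969 (minus) for Timm23, chr9:50603775-50603843 (plus) for Timm8b and chr16:57121604-57121671 (plus) for Tomm70a. The first 5 named genes fell and Tomm70a did not pass the test, and of the 5 tested members with the ETS core, Timm10b, Timm23 and Timm29 fell while Timm10 and Tomm70a were not called. The ETS core was thus found in members of either kind.

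Several members share their start region with a gene on the opposite strand. Within 1000 bases, 8 members had such a protein-coding neighbor, of which 3 fell, 2 rose and 3 were not called. The shares of all genes were 20.2% lower and 20.8% higher, and the difference from them was not tested. Tomm34, Timm10b and Timm29 overlap their neighbors Stk4, Arfip2 and Yipf2 on the opposite strand. Timm8b lies 98 bases from the start of Sdhd, a subunit of succinate dehydrogenase, which fell by 0.76 on the log2 scale (edgeR adjusted p = 2.41e-06) while Timm8b fell by 0.25. Timm23 starts 51 bases from Parg, a poly(ADP-ribose) glycohydrolase, which rose by 0.28 (adjusted p = 0.0332) while Timm23 fell by 0.23. In 3 pairs both genes fell, and Timm23 with Parg was the only pair in which both passed the test in opposite directions.

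The genes that work beside the translocases gave a mixed picture. Of 42 partner genes measured, 24 fell, 6 rose and 12 were not called, with a median log2 fold change of −0.18. Among all genes tested, 20.2% fell and 20.8% rose. The 6 that rose did not stand for their lists: of 3 matrix chaperones 1 rose and 2 fell (Hspe1 −0.27 and Trap1 −0.23), of 8 inner membrane and matrix proteases 2 rose and 3 fell (Clpp −0.38, Htra2 −0.16 and Spg7 −0.16), and of 7 presequence peptidases 1 rose and 4 fell. Hspa9, the mtHsp70 of the import motor, ranged from 1022 to 1474 CPM in WT and from 2180 to 3263 CPM in OPA1 BKO mice (1.12 ± 0.08, edgeR adjusted p = 6.24e-08), and Lonp1, a matrix protease, from 178.5 to 236.9 and from 571.3 to 1076 CPM (1.88 ± 0.11, adjusted p = 2.20e-09). Hspd1 (0.47), Grpel2 (0.59), Pitrm1 (0.31) and Oma1 (0.29) rose as well. In the same motor as Hspa9, its anchor Timm44 and its exchange factor Grpel1 (−0.33 ± 0.07, adjusted p = 0.00148) fell. Its J-proteins Dnajc19 (−0.54 ± 0.08, adjusted p = 3.94e-05) and Dnajc15 (−0.42 ± 0.07, adjusted p = 0.000187) fell as well. The other exchange factor of the motor, Grpel2, rose without overlap (0.59 ± 0.08, adjusted p = 3.59e-05), and Pam16 was not called (−0.17 ± 0.13). Of 7 genes of MICOS, the complex that holds crista junctions, 6 fell, led by Apool (−0.79), 2410015M20Rik (−0.75) and Minos1 (−0.71), and Immt was not called (log2 fold change −0.0047 ± 0.06).

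Other nuclear genes for mitochondrial proteins were lower too. For comparison, 20.2% of all genes fell, 20.8% rose, and 4.89% had every OPA1 BKO mouse below every WT mouse. Of 78 Mrpl and Mrps genes, 55 fell and 1 rose, with a median log2 fold change of −0.27. Of 46 Nduf genes, 42 fell and 1 rose, with a median of −0.54 and no overlap in 31. Against these medians stood −0.30 for the TIM and TOM genes, and the difference between the groups was not tested. Tomm7, the lowest member, lay beyond the median Nduf gene, as did Tomm40l, Timm13 and, by a small margin, Timm10b.

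The muscle RNA noted above varied among mice within each group. With only the 7 mice under 1000 CPM of muscle markers (3 WT and 4 OPA1 BKO), 12 of the 23 members were lower and 0 higher, against 9.07% and 9.21% of all genes in that fit, with a median log2 fold change of −0.36. Timm8b (−0.25), Timm9 (−0.30), Timm17b (−0.28), Timm23 (−0.21) and Tomm20 (−0.25) kept their direction at about the size seen in all mice and missed the threshold. In males (2 against 2 mice) 7 members were called; in females 1 WT mouse was left against 2 OPA1 BKO mice, and its 0 calls say nothing about stability. This choice of mice was made after the marker levels were seen.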

How the data were processed

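The authors quantified reads of stranded, poly(A)-selected libraries against mouse transcripts with kallisto 0.45.0 and deposited estimated counts and TPM per transcript; the submitters' notes name mm10. Of 135308 transcripts, 133284 were matched by ID (version removed) to the GENCODE M21 annotation; the rest held 0.483% to 0.730% of the counts. Gene sums of the estimated counts, rounded to whole numbers, were tested with edgeR 4.0.16 (quasi-likelihood, TMM, terms for genotype and sex, filterByExpr with a minimum count of 10; R 4.3.3), after the scripts were tested on simulated data. limma 3.58.1 and DESeq2 1.42.0 were alternatives. Paralog shares were compared by exact permutation tests (SciPy 1.17.1). Word sharing between genes was counted over 31-base words. Kallisto assigns a read that fits several genes by estimation, so genes with near copies are less certain. All 25 members are named. The members and lists were chosen with earlier results of these data known. The study's other pipeline (HISAT2 and featureCounts) was not analysed here.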

Additional observations from a re-analysis of the deposited data

Results flagged for a closer look

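In 92 sets of 4 mice (23 genes in 4 groups of genotype and sex), 5 had a mouse far from the other 3 of its group, where chance alone marks about 5% of sets. Timm10 was at 24.9 CPM in WT female replicate 3, below the other WT females at 31.1 to 31.9 CPM. Timm10 was at 46.9 CPM in OPA1 BKO male replicate 3, above the other males at 38.6 to 39.2 CPM. In OPA1 BKO female replicate 3, Timm21 was at 33.0 CPM against 33.8 to 33.9 CPM, and Timm8a1 was at 28.8 CPM against 24.2 to 24.7 CPM. Tomm5 was at 58.3 CPM in OPA1 BKO female replicate 2, above the other females at 52.4 to 52.7 CPM. Of these mice, OPA1 BKO female replicate 2, OPA1 BKO male replicate 3 and WT female replicate 3 were among the 9 with summed muscle markers above 1000 CPM; whether muscle RNA bears on these values was not tested. The interaction of genotype and sex called 0 members.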

How the results depend on the processing

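DESeq2 in place of edgeR, DESeq2 size factors, TMM without the mitochondrial genome, a mean TPM of at least 1 and a fit with no term for sex left every member on its side of the threshold. The direction turned with library size alone, TPM and nuclear TPM, where the all-gene median was 0.57, 0.87 and 0.44. Which scale lies closest to the true RNA levels was not tested. With library size alone the members gave 0 lower and 13 higher, the partners 2 lower and 31 higher and females 9 calls, and log2 fold changes turned to Timm10b 0.0037, Timm29 0.016, Timm22 0.054, Timm21 0.082, Timm50 0.12, Tomm6 0.14, Timm44 0.18, Tomm5 0.19, Tomm22 0.26, Timm9 0.27, Timm17b 0.28, Timm8b 0.30, Timm23 0.32, Tomm20 0.36, Timm17a 0.40, Tomm70a 0.52 and Timm8a1 0.53. With limma on log2(TPM + 0.5) the members gave 0 lower and 23 higher, the partners 0 and 42 and females 22 calls, and values turned to Tomm7 0.25, Timm13 0.30, Tomm40l 0.36, Timm10b 0.37, Timm29 0.41, Timm22 0.45, Timm21 0.48, Timm50 0.49, Tomm6 0.55, Timm44 0.59, Tomm5 0.61, Timm9 0.67, Tomm22 0.69, Timm8b 0.71, Timm23 0.71, Timm17b 0.73, Tomm20 0.75, Timm17a 0.86, Tomm70a 0.90 and Timm8a1 0.93. With a pseudocount of 0.1 the counts were the same (0 and 23, 0 and 42, females 22) and the values were Tomm7 0.25, Timm13 0.30, Tomm40l 0.37, Timm10b 0.37, Timm29 0.42, Timm22 0.46, Timm21 0.49, Timm50 0.49, Tomm6 0.55, Timm44 0.59, Tomm5 0.61, Timm9 0.67, Tomm22 0.69, Timm8b 0.71, Timm23 0.72, Timm17b 0.74, Tomm20 0.75, Timm17a 0.87, Tomm70a 0.92 and Timm8a1 0.94. With nuclear TPM the members gave 2 lower and 12 higher, the partners 3 and 29 and females 3 calls, and values turned to Timm21 0.0049, Timm50 0.0065, Tomm6 0.071, Timm44 0.11, Tomm5 0.12, Timm9 0.19, Tomm22 0.21, Timm8b 0.23, Timm23 0.23, Timm17b 0.25, Tomm20 0.27, Timm17a 0.38, Tomm70a 0.43 and Timm8a1 0.45. Scaled to Tbp, 10 members were lower, 10 partners lower, 3 called in females and 4 in males; Tomm22, Tomm5, Timm17b, Timm23, Timm8b, Timm9 and Tomm20 lost their call (adjusted p 0.102 to 0.570) with all-gene median 0.11, and values turned for Tomm70a 0.067 and Timm8a1 0.073. With no filter on low counts 14 members were lower (10 called in males and 13 partners lower), Timm23, Timm8b and Tomm20 losing their call, with Tomm70a 0.015 and Timm8a1 0.028; the cause was not tested. In the 7 mice low in muscle markers (chosen after seeing the data), females gave 0 calls (1 WT mouse was left, assumed to vary like the other groups), males 7 and the partners 10 lower, with Tomm34 −0.12, Tomm40 −0.055, Tomm70a 0.053 and Timm8a1 0.077. Counts scaled by length ended the call of Tomm20 (16 members lower) and turned Tomm40 −0.0059, and adding the counts of genes that share 10% of words (also chosen after seeing the data) turned Timm8a1 0.051. The members whose values turned from the Tbp scaling on were not called in any direction under the reported fit.

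Leaving out each mouse in turn gave 17 to 18 members lower, 0 to 1 higher (Timm10 without OPA1 BKO female replicate 1), 10 to 14 called in females, 12 to 16 in males, 0 in the interaction, 20 to 24 partners lower, 6 higher and 0 to 1 members with changed transcript usage (1 without OPA1 BKO female replicate 3). Timm17a was called without WT male replicate 3 (−0.20). The log2 fold change ranged from −0.082 to 0.028 for Timm8a1, from −0.0060 to 0.060 for Tomm34 and from −0.042 to 0.032 for Tomm40, from −2.90 to −2.76 for Opa1, and the Tomm40l share difference from −10.6 to −8.95 percentage points. The Timm8a1 share of its pair differed by 3.77 percentage points in estimated counts and by 1.38 to 2.27 with a mouse left out, and its exact permutation p before adjustment went below 0.05 without WT female replicate 1, WT female replicate 4 or OPA1 BKO male replicate 3 (0.00870). No paired analysis was possible because the labels give no number, litter or batch that ties mice across genotypes. Counting error limits only Timm8a2 and Tomm20l, which lay at or under 3 counts in every mouse.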
